A study of Danio rerio with 18 samples.

Results

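The comparison described is that of intestines from chd8-/- zebrafish larvae with intestines from conventionally raised wild type larvae (CV), both of the AB strain and taken 5 days after fertilization. It rests on 6 of the 18 libraries of the series, 3 per group, chosen by their labels and read from the count table that holds them. The other libraries hold germ-free intestine and the kidneys of all 3 kinds of fish at 7 days, of which the CV and chd8-/- kidneys serve here for comparison. Every gene of the table is a member: 32520 genes were counted and 20758 passed the filter on low counts and were tested. No treatment and no transgene is named for either group. The labels do not say what kind of mutation the chd8 allele is, whether the chd8-/- larvae had homozygous mothers, or at what hour the fish were collected. Whole intestines were pulled out with tweezers from larvae held in RNAlater and were pooled, with 30 larvae named for CV and 40 for chd8-/- and no statement of how many went into 1 library. CV eggs were spawned in autoclaved system water and chd8-/- eggs in circulating system water. The CV tissue was flash frozen on dry ice before Trizol was added, whereas the chd8-/- tissue went into Trizol first and was frozen after that. Genotype, spawning water, handling and any batch therefore cannot be told apart, and every difference below is one between these groups of libraries.

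CHD8 is a chromatin remodeller of the chromodomain helicase family, which uses ATP to move nucleosomes and sits mostly at the promoters of active genes. In human cells it has been described to bind β-catenin and p53 and to restrain their target genes, and to be needed for the E2F-driven genes of DNA replication. Loss of 1 copy in people is among the best known genetic causes of autism, often with gut complaints, which is why the intestine of chd8 mutants is of interest. In zebrafish larvae of this age the gut has opened, the yolk is nearly used up, and the epithelium holds absorptive enterocytes, lysosome-rich enterocytes that take up protein, goblet cells and hormone cells.

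The 6 libraries held 26809112 to 36605507 counts, and 24213 to 24855 genes had at least 1 count. Intestinal markers were abundant in all 6. The fatty acid binding gene FABP2 stood at 1266, 1782 and 2409 CPM in CV against 2158, 2200 and 1819 CPM in chd8-/- (CPM, counts scaled to library size with TMM factors), and the villus actin bundler VIL1 at 1638 to 2192 CPM. The markers cdx1b, CDH17, cldn15la and apoa4b.1 likewise overlapped between the groups, with log2 fold changes from −0.09 to 0.12. No pair of libraries of a group agreed within sampling noise, the lowest chi-square per degree of freedom being 24.2. The CV libraries were far apart in ribosomal protein genes, whose summed level was 35778 CPM in CV replicate 1, 57284 and 85311 CPM in the other CV libraries and 62904 to 75725 CPM in chd8-/-. Both the lowest and the highest of the 6 sums were thus CV libraries. No label says whether the 3 libraries of a group are separate clutches. The p-values therefore speak only of variation among these libraries, which may be technical. Genes of the pancreas and liver, which lie against the gut, were abundant in all 6 libraries, with summed levels of exocrine pancreas genes of 17380 to 30876 CPM in CV against 28945 to 43222 CPM in chd8-/-, and of liver genes of 18751 to 26444 and 17466 to 22876 CPM.

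The targeted gene was checked first. CHD8 stood at 54.2, 51.8 and 56.6 CPM in CV against 31.8, 34.5 and 41.3 CPM in chd8-/-. Every mutant library lay below every CV library and none lost the transcript. The difference (log2 fold change −0.60, SE 0.15, adjusted p = 0.0292) missed the threshold without CV replicate 3 (−0.56, adjusted p = 0.0561), chd8-/- replicate 1 (−0.51, 0.158), replicate 2 (−0.56, 0.129) or replicate 3 (−0.70, 0.0598). Of the 10 tested members of the CHD family, 9 had a negative log2 fold change, with a median of −0.42. Only 2 were called lower, where 5.19% of all genes tested were, and 1 of the 2 was CHD8 itself. The second was chd6, with 40.4, 27.7 and 32.2 CPM in CV against 21.2, 18.4 and 20.7 in chd8-/- (log2 fold change −0.73, SE 0.17, adjusted p = 0.022), and its call was lost without any 1 of the chd8-/- libraries (adjusted p = 0.109 without chd8-/- replicate 2 at the highest). No member was called higher.

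At an adjusted p under 0.05, 826 genes were higher in chd8-/- intestine, 3.98% of the genes tested, and 1077 were lower, 5.19%, together 1903 or 9.17% (edgeR quasi-likelihood test, Benjamini-Hochberg adjustment over all genes tested). No list of genes below was tested as a set, and its counts are to be read beside these shares of all genes. Changes of at least 2-fold made up 454 of the higher and 700 of the lower calls, and of at least 4-fold 168 and 276. In 30.3% of the tested genes, called or not, the CPM of the 2 groups did not overlap. Such separation is therefore common, and it is given below as description only. The number of calls changed with the libraries used: leaving out a chd8-/- library left 741 to 829 calls, leaving out CV replicate 2 left 1261, and leaving out CV replicate 1 gave 3069. Each of these fits has 1 library less, and for lost calls the smaller group and the library left out cannot be told apart. A core of 598 genes, 260 higher and 338 lower, was called with the same sign in all 6 fits that left out 1 library, and the genes named below belong to it unless another adjusted p is given for them. Every other named gene that was called missed the threshold without at least 1 chd8-/- library. The second adjusted p given for such a gene is the highest of the 6 fits, and its call was often lost in several of them. Scaling by library size alone moved the median of all genes by −0.124 on the log2 scale and moved the share of higher genes among the calls from 43.4% to 27.1%, so the balance of rises and falls depends on the scaling. Since each library is a whole organ, fewer cells of a type and less RNA per cell cannot be told apart in any of these values.

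**Figure D1:**
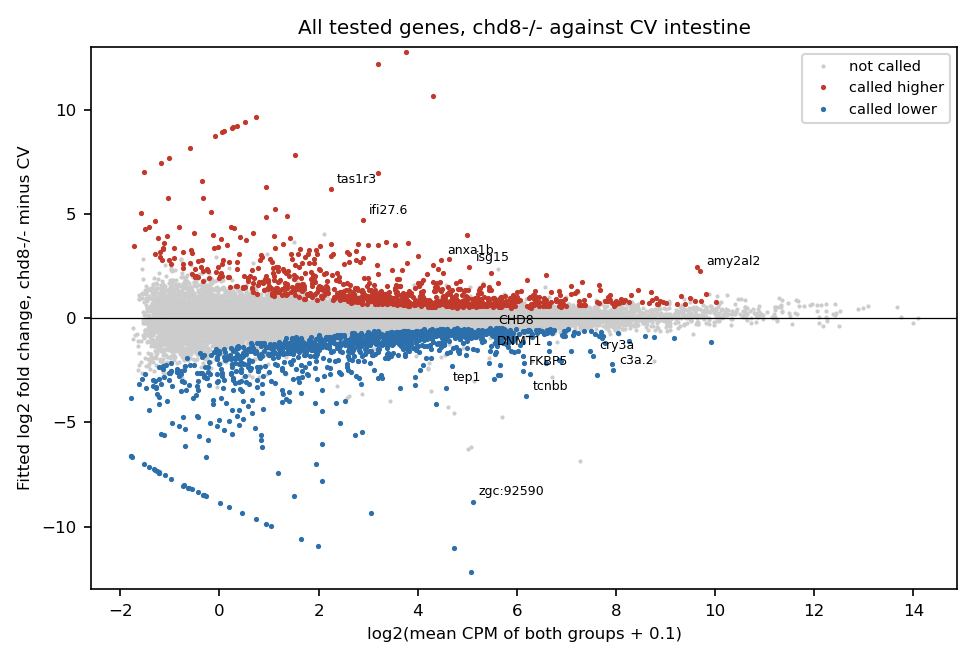
Fitted log2 fold change (chd8-/- minus CV, y axis) against the log2 mean CPM of both groups (x axis) for the 20758 tested genes, 1 point per gene, with the 826 called higher in red, the 1077 called lower in blue and the rest in grey. Labels mark 13 genes of the text, from tas1r3 and ifi27.6 among the highest fold changes to tcnbb and zgc:92590 among the lowest.

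**Figure D2:**
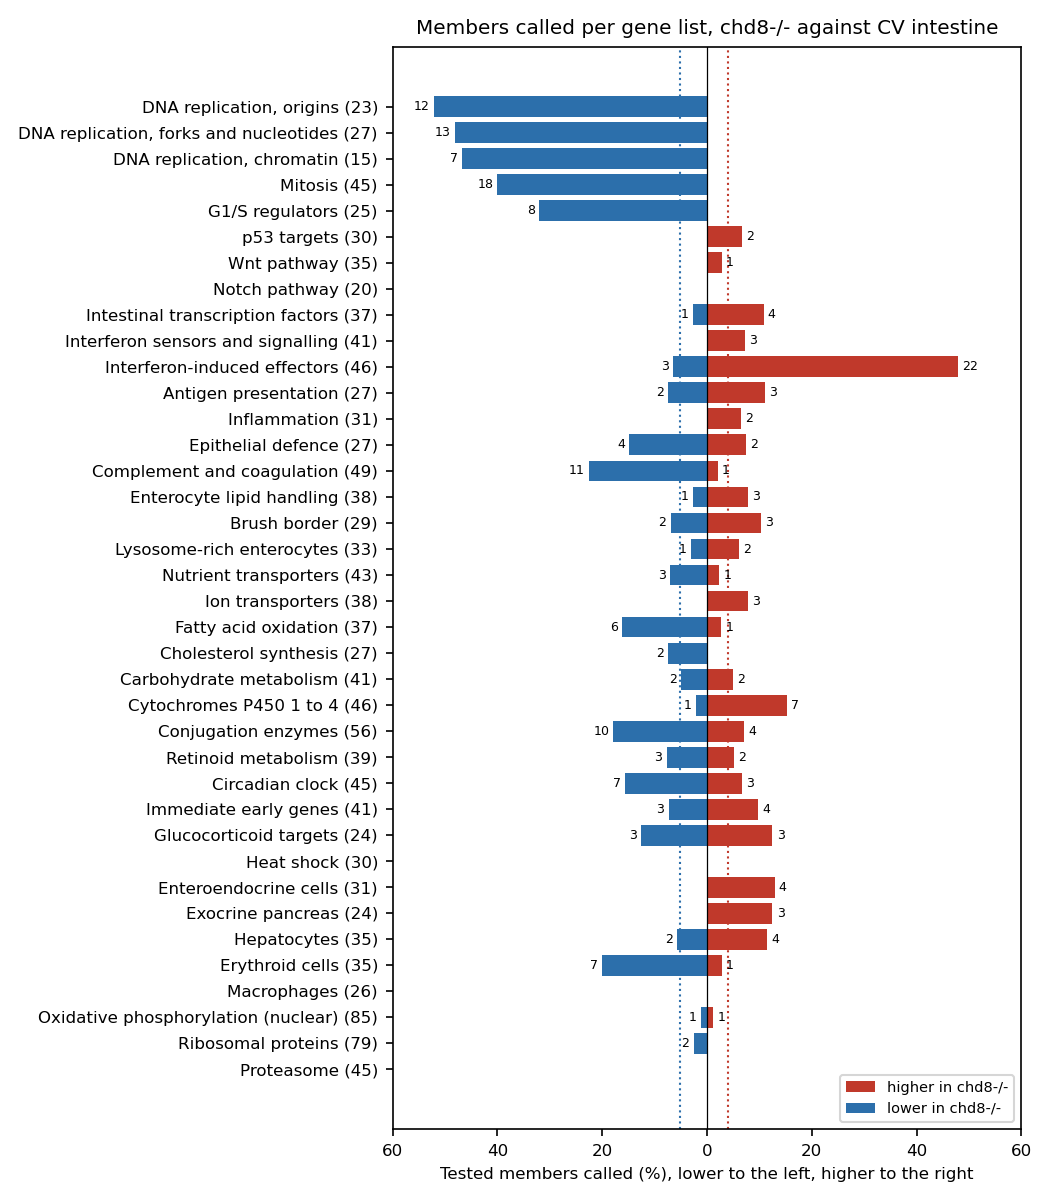
Share of the tested members of a gene list that were called lower (left, blue) or higher (right, red) in chd8-/- intestine, with the number of tested members in brackets and the number called at each bar; the dotted lines mark the shares over all genes, 5.19% lower and 3.98% higher. The lists of DNA replication, mitosis and G1/S regulators reach furthest to the left, from 32% to 52.2%, and the interferon-induced effectors furthest to the right, with 47.8%.

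Many genes that copy DNA were lower in chd8-/- intestine, and most of these calls were lost in at least 1 fit that left out a library. Of 23 tested genes that license and fire replication origins, 12 fell, 0 rose, 11 did not pass and 22 had a negative log2 fold change, with a median of −0.80 where all genes had −0.01. MCM10, which helps switch on the replicative helicase, fell from 4.07, 4.79 and 3.5 CPM in CV to 0.758, 0.397 and 0.816 in chd8-/- (log2 fold change −2.65, SE 0.34, adjusted p = 0.00104). No other origin gene kept its call with each library left out. The origin recognition gene ORC6 stood at 3.59, 7.56 and 3.81 CPM in CV against 1.45, 1.62 and 1.5 in chd8-/- (log2 fold change −1.72, SE 0.33, adjusted p = 0.00914; adjusted p = 0.0532 without chd8-/- replicate 3). The helicase loader CDC6 followed at 5.47, 8.75 and 8.99 CPM in CV against 4.42, 3.3 and 3.43 in chd8-/- (adjusted p = 0.118 without chd8-/- replicate 3). The genes MCM2, MCM3, MCM4, MCM5 and MCM6, which belong to the helicase ring, differed by −0.53 to −0.80 (1 of 2 genes named MCM6). The calls of CDC6 and of these 5 genes were each lost without any 1 of the chd8-/- libraries, with an adjusted p of up to 0.195 for MCM2. MCM7, the other member of the ring, did not pass (log2 fold change −0.07, adjusted p = 0.891). The list counted 19 lower members without CV replicate 1 and 1 without chd8-/- replicate 3, while its median stayed between −1.02 and −0.74.

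At the replication fork and in nucleotide supply, 13 of 27 tested genes fell and 0 rose (median −0.80; 5 to 19 lower with 1 library left out, the most without CV replicate 1 and the fewest without any chd8-/- library). Over all genes 5.19% fell and 3.98% rose. RRM2, the small subunit of ribonucleotide reductase, which makes deoxynucleotides, fell from 4.93, 9.77 and 7.45 CPM in CV to 1.77, 0.733 and 0.748 in chd8-/- (log2 fold change −2.77, SE 0.39, adjusted p = 0.0018; 1 of 2 genes with this symbol). Every mutant library held less than every CV library. POLA1, the catalytic subunit of the polymerase that lays down primers, fell from 21.9, 33.8 and 25.2 CPM in CV to 9.6, 12.3 and 10.7 in chd8-/- (−1.31, SE 0.19, adjusted p = 0.00222). POLE, that of the leading strand polymerase, fell from 15.6, 22.5 and 18 CPM in CV to 9.28, 8.55 and 7.89 in chd8-/- (−1.13, SE 0.18, adjusted p = 0.00395). FEN1, which trims Okazaki fragments, fell from 12.9, 24.1 and 23.7 CPM in CV to 8.74, 6.01 and 7.55 in chd8-/- (−1.44, SE 0.25, adjusted p = 0.0058). The ligase gene LIG1, which seals them, stood at 21.3, 69.3 and 39.5 CPM in CV against 14.5, 13 and 12.9 in chd8-/-, a fall that was lost without any 1 chd8-/- library (log2 fold change −1.69, SE 0.36, adjusted p = 0.02; adjusted p = 0.104 without chd8-/- replicate 3). Beside the list, the CTP synthase gene CTPS1 (1 of 2 with this symbol) fell by 1.19, 1 of 2 IMPDH1 genes, for guanine nucleotide synthesis, by 2.66 (8.86, 9.77 and 9.2 CPM in CV against 1.39, 1.4 and 1.6 in chd8-/-), and the deoxycytidine kinase gene DCK by 2.18 on the log2 scale.

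Of 15 genes that rebuild chromatin behind the fork 7 fell, 0 rose and 8 did not pass, with 5 to 9 lower when 1 library was left out. Among those that did not pass, EED, of the complex that holds EZH2, had a positive log2 fold change (0.82, adjusted p = 0.0587). DNMT1, which restores DNA methylation on the new strand, fell from 46.8, 87.7 and 63.9 CPM in CV to 20.9, 21.4 and 23.3 in chd8-/- (log2 fold change −1.60, SE 0.21, adjusted p = 0.00122). UHRF1, which guides it to half-methylated DNA, fell from 60.7, 80.3 and 57.1 CPM in CV to 32.4, 30.4 and 31.1 in chd8-/- (−1.08, SE 0.16, adjusted p = 0.00241). The remodeller HELLS, also needed for DNA methylation, fell from 18.7, 22 and 22.3 CPM in CV to 10.3, 10.8 and 9.62 in chd8-/- (−1.03, SE 0.15, adjusted p = 0.00249). These 3 partners were each at about the same level in all 3 mutant libraries. EZH2, the histone H3 lysine 27 methyltransferase, fell from 19.2, 19.8 and 19.5 CPM in CV to 11.1, 9.58 and 8.16 in chd8-/- (−1.02, SE 0.16, adjusted p = 0.00403). CHAF1B, of the histone chaperone that follows the fork, fell from 8.21, 12.6 and 10.9 CPM in CV to 4.45, 3.94 and 4.96 in chd8-/- (−1.25, SE 0.22, adjusted p = 0.00555). The recombination genes RAD54L and MMS22L and the chromatin genes CDCA7 and ATAD2, which stand in no list, fell by 1.79, 2.07, 1.11 and 1.21 on the log2 scale.

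Of 45 mitosis genes tested, 18 fell, 0 rose, 27 did not pass and 44 had a negative log2 fold change (median −0.98, 7 to 31 lower with 1 library left out, fewest without chd8-/- replicate 2 and most without CV replicate 1). The shares over all genes were 5.19% lower and 3.98% higher. TOP2A, the topoisomerase that untangles chromosomes, fell from 27.3, 33.2 and 36 CPM in CV to 12.5, 11.8 and 12.3 in chd8-/- (log2 fold change −1.40, SE 0.16, adjusted p = 0.000439). The condensin gene SMC2 fell from 15.4, 22.3 and 22.6 CPM in CV to 7.51, 8.94 and 6.19 in chd8-/- (−1.41, SE 0.21, adjusted p = 0.00231). SMC4, of the same complex, fell from 17.8, 27.5 and 26.4 CPM in CV to 9.31, 8.73 and 11.5 in chd8-/- (−1.28, SE 0.20, adjusted p = 0.00324). CENPF, of the kinetochore, fell from 14.2, 12.4 and 15.8 CPM in CV to 6.47, 7.2 and 5.54 in chd8-/- (−1.14, SE 0.18, adjusted p = 0.00397). No mutant library reached the lowest CV library for any of these 4 genes. Anillin (anln), which shapes the cleavage furrow, and the kinesin gene kif20ba fell by 1.11 and 1.28 on the log2 scale. CDK1, the kinase that drives entry into mitosis, stood at 6.02, 7.2 and 11.5 CPM in CV against 3.44, 4.27 and 3.54 in chd8-/- (log2 fold change −1.14, SE 0.27, adjusted p = 0.0237; adjusted p = 0.107 without chd8-/- replicate 3).

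Of 25 regulators of the step from G1 to S phase, 8 fell and 0 rose (median −0.15; 2 to 8 lower with 1 library left out, fewest without chd8-/- replicate 3). E2F8, an atypical E2F that represses the same targets, fell from 8.45, 12.5 and 9.06 CPM in CV to 2.71, 2.5 and 2.24 in chd8-/- (log2 fold change −2.01, SE 0.23, adjusted p = 0.000485). MYBL2, which acts with the E2F and DREAM complexes, fell from 8.18, 15 and 10.7 CPM in CV to 2.9, 3.78 and 2.92 in chd8-/- (−1.82, SE 0.25, adjusted p = 0.00169). The activator E2F1 stood at 6.16, 6.29 and 4.09 CPM in CV against 1.89, 1.53 and 2.72 in chd8-/- (log2 fold change −1.43, SE 0.29, adjusted p = 0.0127; adjusted p = 0.0689 without chd8-/- replicate 2). The cyclin genes CCNE1 and CCNE2 differed by −1.15 and −1.72 (adjusted p = 0.116 without chd8-/- replicate 1; adjusted p = 0.0881 without chd8-/- replicate 3). Of 30 targets of p53, 2 rose and 0 fell, 6.67% where 3.98% of all genes rose. XPC, which recognises damaged DNA, rose from 22.1, 21.7 and 21.8 CPM in CV to 36.5, 38.9 and 43.9 in chd8-/- (log2 fold change 0.86, SE 0.14, adjusted p = 0.00398), with each group tightly spread, and cyclin G1 (CCNG1) stood at 359.9, 336 and 336 CPM in CV against 606, 618 and 588 in chd8-/- (log2 fold change 0.81, SE 0.16, adjusted p = 0.0117; adjusted p = 0.0642 without chd8-/- replicate 2).

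**Figure D3:**
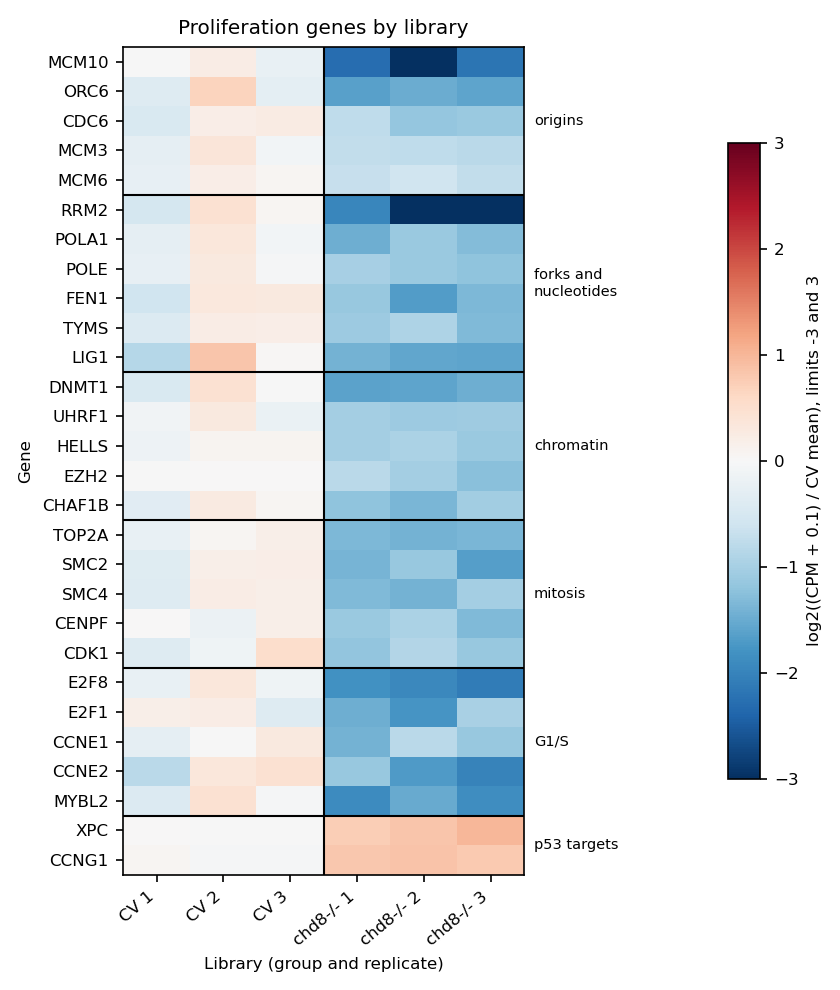
Level of 28 cell cycle and p53 target genes in each of the 6 libraries (columns), coloured by log2 of CPM + 0.1 relative to the CV mean, from −3 (blue) to 3 (red), with genes grouped by role in the rows. The 3 chd8-/- columns are blue throughout the replication, chromatin, mitosis and G1/S rows and red for XPC and CCNG1, while CV replicate 2 tends to the highest levels.

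Many interferon-induced genes rose. These genes are switched on by type I interferon and hold back viruses inside cells. Of 46 tested effectors 22 rose, 47.8% against 3.98% of all genes, 3 fell and 21 did not pass, with a median log2 fold change of 0.82 (0.66 to 1.14 with 1 library left out). With 1 library left out 15 to 22 rose, fewest without chd8-/- replicate 2, and 15 kept their call throughout. The ubiquitin-like modifier gene isg15 stood at 11.4, 12.1 and 7.17 CPM in CV against 58.5, 58.8 and 49.1 in chd8-/- (log2 fold change 2.44, SE 0.20, adjusted p = 8.81e-05). The 3 mutant libraries lay close together and far above the highest CV library. Among genes of the ifit family, whose proteins bind viral RNA, ifit14 rose from 8.28, 6.32 and 3.32 CPM in CV to 43.3, 45.3 and 41.3 in chd8-/- (2.85, SE 0.27, adjusted p = 0.000204). The gene ifit8 rose from 0.753, 0.659 and 0.42 CPM in CV to 3.91, 5.95 and 5.61 in chd8-/- (3.06, SE 0.32, adjusted p = 0.000342). Of the ifi27 genes, ifi27.6 rose from 0.616, 0.355 and 0.7 CPM in CV to 10.3, 15.1 and 16.9 in chd8-/- (4.69, SE 0.31, adjusted p = 2.21e-05) and ifi27.4 from 5.61, 10.2 and 9.2 CPM in CV to 33.1, 37.5 and 40.2 in chd8-/- (2.14, SE 0.22, adjusted p = 0.000241). The members ifi27.1, ifi27.2 and ifi27.3 rose by 1.70, 3.58 and 1.40 on the log2 scale. These families hold near-identical copies, so reads may be split between their members.

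Other effectors rose as well. CMPK2, a mitochondrial nucleotide kinase, rose from 1.81, 1.55 and 0.49 CPM in CV to 11.1, 9.74 and 11.6 in chd8-/- (3.06, SE 0.36, adjusted p = 0.000699). The Mx GTPase genes mxb and mxe, the Z-DNA-binding kinase gene pkz and herc56.1 rose by 2.44, 2.07, 1.27 and 3.48 on the log2 scale. RSAD2, for viperin, stood at 8.18, 7.58 and 1.4 CPM in CV against 28.7, 35.6 and 36.3 in chd8-/- (log2 fold change 2.54, SE 0.54, adjusted p = 0.0318; adjusted p = 0.111 without chd8-/- replicate 3), with CV replicate 3 far below the other CV libraries. The helicase gene helz2a had the same shape, with 10.02, 10.2 and 2.24 CPM in CV against 24.3, 30.6 and 25.5 in chd8-/- (log2 fold change 1.83, SE 0.47, adjusted p = 0.0497; adjusted p = 0.136 without chd8-/- replicate 3). The 3 effectors that were lower were parp9 (−0.72), gbp2 (−0.96) and mxf (−2.14), and each missed the threshold when 1 library was left out (adjusted p = 0.131 without chd8-/- replicate 3; adjusted p = 0.157 without chd8-/- replicate 3; adjusted p = 0.172 without CV replicate 2). Upstream of the effectors, 3 of 41 sensors, receptors and signalling genes rose (7.32%, where 3.98% of all genes rose) and 0 fell, with a median of 0.06. The RNA sensor gene IFIH1 rose from 5.85, 7.66 and 5.35 CPM in CV to 13.7, 13.6 and 14.3 in chd8-/- (1.14, SE 0.19, adjusted p = 0.00433). DHX58, for a second RNA sensor, rose from 11.4, 15.3 and 6.23 CPM in CV to 32.5, 30.6 and 29.8 in chd8-/- (1.49, SE 0.27, adjusted p = 0.00697). The feedback inhibitor gene SOCS1 rose from 4.11, 5.38 and 4.37 CPM in CV to 11.7, 12.9 and 11.1 in chd8-/- (1.36, SE 0.19, adjusted p = 0.00164). All 3 are themselves induced by interferon.

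**Figure D4:**
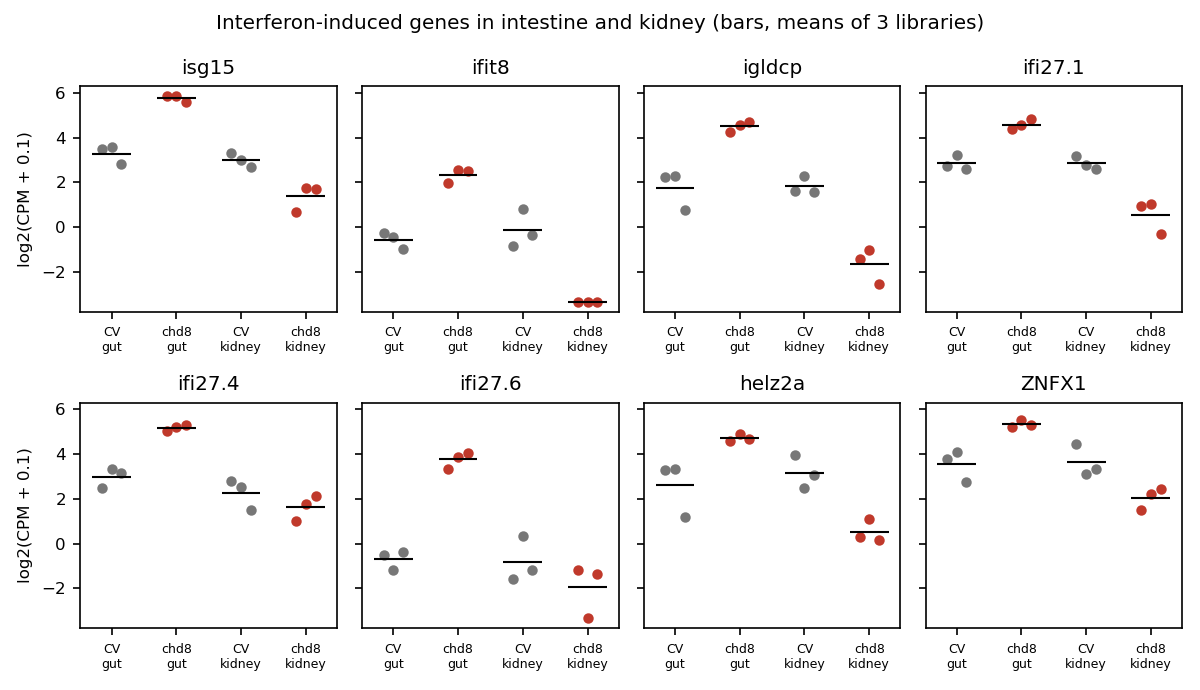
Level of 8 interferon-induced genes as log2(CPM + 0.1) in 12 libraries, with 3 points per group and a bar at their mean; grey points are CV and red points chd8-/-, for intestine (gut) and kidney. In each panel the chd8-/- intestine lies above the CV intestine, and the chd8-/- kidney has a lower mean than the CV kidney.

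Genes that present antigens went both ways. Of 27 tested, 3 rose and 2 fell, where 3.98% of all genes rose and 5.19% fell. These 5 kept their calls with every library left out. The class I gene mhc1zea rose from 3.66, 4.59 and 3.04 CPM in CV to 17.2, 19.7 and 18.6 in chd8-/- (log2 fold change 2.29, SE 0.20, adjusted p = 0.000102). A second class I gene, mhc1zda, rose from 1.54, 2.28 and 1.26 CPM in CV to 11.1, 13.9 and 10.1 in chd8-/- (2.77, SE 0.26, adjusted p = 0.000176). The class II gene mhc2dab rose from 0.582, 0.964 and 0.84 CPM in CV to 5.18, 5.43 and 3.57 in chd8-/- (2.56, SE 0.31, adjusted p = 0.000774). Against these, the class I gene mhc1zba fell from 158, 269 and 149 CPM in CV to 37.5, 54.4 and 44.2 in chd8-/- (−2.08, SE 0.24, adjusted p = 0.000628). The class I gene mhc1uca, of another lineage, fell from 2.16, 2.97 and 2.13 CPM in CV to 0.253, 0.183 and 0.442 in chd8-/- (−3.05, SE 0.42, adjusted p = 0.00163). Class I genes thus moved in both directions, and those of the Z lineage are similar copies among which the counting may divide reads.

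Of 49 complement and coagulation genes, 11 fell (22.4%, tep1 included) and 1 rose, where 5.19% of all genes fell and 3.98% rose. With 1 library left out 4 to 14 were lower, fewest without chd8-/- replicate 1. The gene tep1, which entered this list by its symbol, fell from 51.8, 46.4 and 31.4 CPM in CV to 4.48, 4.52 and 3.81 in chd8-/- (log2 fold change −3.34, SE 0.21, adjusted p = 1.55e-05). By the gene order given at the end, it lies 14 genes from chd8. Its symbol alone does not show that it belongs to complement, which was not tested. The factor B gene bfb fell from 18.1, 27.6 and 37.4 CPM in CV to 2.62, 3.39 and 2.92 in chd8-/- (−3.21, SE 0.27, adjusted p = 8.37e-05). The C3 gene c3a.2 fell from 362, 333 and 548 CPM in CV to 87.1, 87 and 46.1 in chd8-/- (−2.50, SE 0.28, adjusted p = 0.000532). The factor H-like gene cfhl2 fell from 54.7, 60.4 and 76.5 CPM in CV to 33.6, 34.3 and 28.1 in chd8-/- (−1.00, SE 0.17, adjusted p = 0.00463). Both other C3 copies that were lower, c3a.3 (−0.87; adjusted p = 0.134 without chd8-/- replicate 3) and c3a.4 (−0.85; adjusted p = 0.196 without chd8-/- replicate 3), moved less. The single gene that was higher was cfd, for factor D, at 165, 171 and 217 CPM in CV against 299.6, 321 and 281 in chd8-/- (log2 fold change 0.71, SE 0.17, adjusted p = 0.0266; adjusted p = 0.116 without chd8-/- replicate 2). Complement is made largely in the liver, and the liver list given above overlapped between the groups; its part in these falls was not tested.

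Among 27 genes of epithelial defence, 2 were higher and 4 lower, where 3.98% of all genes were higher and 5.19% lower. The hydrogen peroxide producing oxidase duox rose from 0.787, 0.786 and 0.56 CPM in CV to 6.44, 5.8 and 8.26 in chd8-/- (log2 fold change 3.25, SE 0.28, adjusted p = 0.000104), and the groups did not overlap. Hepcidin (hamp), the iron hormone, stood at 2.33, 6.11 and 14 CPM in CV against 0.316, 0.885 and 0.816 in chd8-/- (log2 fold change −3.47, SE 0.65, adjusted p = 0.0126; adjusted p = 0.0706 without chd8-/- replicate 3). Of 31 inflammation genes 2 rose and 0 fell, to be set beside the same shares of all genes. The neutrophil-attracting chemokine gene cxcl8b.3 rose from 11.3, 8.22 and 10.1 CPM in CV to 26.7, 22.5 and 20.6 in chd8-/- (1.24, SE 0.18, adjusted p = 0.00192). By contrast cxcr1, a receptor for such chemokines on neutrophils, had 0 counts in all 3 chd8-/- libraries and 0.547, 0.736 and 0.63 CPM in CV (adjusted p = 0.00524). Against a floor of 3 counts over the group, cxcr1 was at least 19.9-fold lower in the intestine. In kidney it was present, at 3.76, 1.26 and 0.575 CPM in CV against 0.342, 1.53 and 1.08 in chd8-/-. Its difference between tissues was not called. In the intestine cxcr1 was the single call among 17 neutrophil genes, and summed levels of the neutrophil list were 195 to 225 CPM in CV against 225 to 257 CPM in chd8-/-. Much of these sums was CEBPA, at 86.1, 69.7 and 96 CPM in CV against 133, 108 and 132 in chd8-/-. That gene also stands in the list of intestinal transcription factors, so the sums do not measure neutrophils alone. Of 26 macrophage genes none was called by edgeR, with 3 at an unadjusted p under 0.05 and 3 called by DESeq2, all higher. Of 25 lymphoid genes only the chemokine gene ccl38.6 was called (1.44; adjusted p = 0.102 without chd8-/- replicate 2).

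Some genes of fatty acid burning fell. Of 37 tested, 6 fell (16.2%), 1 rose and 30 did not pass, where 5.19% of all genes fell and 3.98% rose. With 1 library left out 3 to 9 were lower, fewest without chd8-/- replicate 3. PDK2, whose kinase turns off pyruvate dehydrogenase and so spares glucose, fell from 93.7, 103 and 94.3 CPM in CV to 38.1, 28.4 and 30.4 in chd8-/- (log2 fold change −1.59, SE 0.16, adjusted p = 0.000201; 1 of 2 genes with this symbol). The other and more abundant PDK2 gene did not pass (−0.33, adjusted p = 0.299). It stood at 214, 193 and 148 CPM in CV against 156, 163 and 124 in chd8-/-. CPT2, which completes the entry of fatty acids into mitochondria, fell from 61.5, 59.1 and 76.6 CPM in CV to 31.3, 28.2 and 27.3 in chd8-/- (−1.18, SE 0.15, adjusted p = 0.00106). DECR1, which handles unsaturated chains, fell from 40.3, 45.7 and 66.5 CPM in CV to 16.8, 19.6 and 17.7 in chd8-/- (−1.50, SE 0.19, adjusted p = 0.00111). For the first PDK2 gene, CPT2 and DECR1 every mutant library lay below every CV library. Of all tested genes, 30.3% had groups without overlap, in either direction. The peroxisomal oxidase gene ACOX3 (−0.73; adjusted p = 0.111 without chd8-/- replicate 3) and hadhaa, of the trifunctional protein (−0.81; adjusted p = 0.118 without chd8-/- replicate 3), were also called lower. Other genes of that protein did not fall with hadhaa. HADHA stood at 107, 108 and 131 CPM in CV against 172, 173 and 143 in chd8-/- (0.50, SE 0.16, adjusted p = 0.0725), and HADHB differed by −0.11 (adjusted p = 0.743). Of 27 cholesterol synthesis genes 2 were called lower, but 12 were without CV replicate 1 and 0 without any 1 of the other 5 libraries.

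The list of lipid handling in enterocytes had 3 higher and 1 lower of 38, where 3.98% of all genes were higher and 5.19% lower. The lipoprotein gene apoa4a rose from 22.4, 21.5 and 25.3 CPM in CV to 69.7, 68.6 and 53.6 in chd8-/- (log2 fold change 1.47, SE 0.16, adjusted p = 0.000343). SOAT2, which esterifies cholesterol for packing into chylomicrons, rose from 11.9, 15.4 and 10.5 CPM in CV to 40.9, 24.1 and 29 in chd8-/- (1.31, SE 0.22, adjusted p = 0.00488). CD36, a fatty acid receptor, stood at 577, 425 and 489 CPM in CV against 918, 1052 and 885 in chd8-/- (log2 fold change 0.94, SE 0.19, adjusted p = 0.0131; adjusted p = 0.0753 without chd8-/- replicate 2). The scavenger receptor gene SCARB1 stood at 61.5, 57.1 and 39.8 CPM in CV against 33.3, 32.9 and 33.4 in chd8-/- (−0.67; adjusted p = 0.14 without chd8-/- replicate 3). Of 41 carbohydrate genes, 2 rose and 2 fell, near the same shares of all genes. PFKFB4, which sets the level of the glycolysis activator fructose 2,6-bisphosphate, fell from 40.6, 45.4 and 42.8 CPM in CV to 20.6, 20.4 and 19.7 in chd8-/- (−1.09, SE 0.13, adjusted p = 0.000811). Both genes named PFKP, for phosphofructokinase, were higher. The first rose from 5.34, 5 and 5.35 CPM in CV to 9.41, 11.1 and 11.2 in chd8-/- (1.02, SE 0.18, adjusted p = 0.00632). The second stood at 13.2, 11 and 15.6 CPM in CV against 30.4, 19.9 and 22.1 in chd8-/- (0.87, SE 0.20, adjusted p = 0.0224; adjusted p = 0.115 without chd8-/- replicate 1). Both groups were narrowly spread for PFKFB4 and for the first PFKP gene.

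Cytochrome P450 genes of families 1 to 4, which oxidise foreign compounds and lipids, moved mostly upward where they passed. Of 46 tested, 7 rose (15.2% against 3.98% of all genes) and 1 fell, with 2 to 15 higher when 1 library was left out, fewest without chd8-/- replicate 2 and most without CV replicate 1. The gene cyp2ad6 rose from 87.1, 88.9 and 83.8 CPM in CV to 154, 163 and 147 in chd8-/- (log2 fold change 0.84, SE 0.14, adjusted p = 0.00428) and cyp2x10.2 from 4.89, 6.77 and 9.45 CPM in CV to 16.2, 15.4 and 18.3 in chd8-/- (1.24, SE 0.23, adjusted p = 0.00762). Those called only with all libraries or most of them included cyp2y3, at 310.1, 271 and 330.4 CPM in CV against 502, 616 and 520.4 in chd8-/- (0.85, SE 0.18, adjusted p = 0.014; adjusted p = 0.0802 without chd8-/- replicate 2), cyp3c3 (0.82; adjusted p = 0.12 without chd8-/- replicate 2) and cyp2p7 (0.91; adjusted p = 0.0568 without chd8-/- replicate 2).

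Conjugation enzymes, which attach sugar, sulphate, acetyl or glutathione groups in the next step of detoxification, moved mostly downward where they passed. Of 56 tested, 10 were lower (17.9%) and 4 higher, where 5.19% of all genes were lower and 3.98% higher. With 1 library left out 4 to 15 were lower, fewest without chd8-/- replicate 3. The glucuronosyltransferase gene ugt2b5 fell from 42.7, 37.3 and 49.2 CPM in CV to 8.33, 8.55 and 8.94 in chd8-/- (log2 fold change −2.32, SE 0.16, adjusted p = 2.34e-05). The N-acetyltransferase gene nat8l2 fell from 11, 8.85 and 8.57 CPM in CV to 0.505, 0.366 and 0.816 in chd8-/- (−4.08, SE 0.31, adjusted p = 4.25e-05). For both genes every mutant library lay below every CV library. The sulphotransferase gene sult1st5 fell from 6.81, 12.5 and 9.38 CPM in CV to 3.5, 3.82 and 2.45 in chd8-/- (−1.55, SE 0.27, adjusted p = 0.00573), the glutathione transferase gene gsta.2 from 19.1, 22.6 and 49.1 CPM in CV to 7.73, 7.36 and 8.7 in chd8-/- (−1.93, SE 0.32, adjusted p = 0.00577). A second sulphotransferase gene, sult2st3, rose from 0.205, 1.12 and 0.595 CPM in CV to 7.26, 7.26 and 7.55 in chd8-/- (3.47, SE 0.42, adjusted p = 0.000788). Of 29 genes of the oxidative stress response, 2 rose and 1 fell. The sensor gene keap1a, which holds Nrf2 in check, rose from 35.9, 31.6 and 34.8 CPM in CV to 74.6, 64.9 and 65.1 in chd8-/- (1.00, SE 0.14, adjusted p = 0.00161), and NQO1, a usual Nrf2 target, was lower (−0.62; adjusted p = 0.138 without chd8-/- replicate 3).

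Carotenoid enzymes split. BCO2, which cuts carotenoids off-centre, fell from 58.7, 98 and 60.02 CPM in CV to 21.8, 23.2 and 20.7 in chd8-/- (log2 fold change −1.72, SE 0.20, adjusted p = 0.000659; 1 of 2 genes with this symbol). Its relative bco2l rose from 18.8, 17.6 and 14.3 CPM in CV to 31.6, 41.9 and 29.95 in chd8-/- (1.03, SE 0.18, adjusted p = 0.00544). BCO1, which makes retinal from β-carotene, stood at 195, 139 and 143 CPM in CV against 288, 354 and 267 in chd8-/- (0.93, SE 0.19, adjusted p = 0.0131; adjusted p = 0.0755 without chd8-/- replicate 2). CYP26A1, which breaks down retinoic acid and is itself induced by it, stood at 7.77, 17.7 and 14.8 CPM in CV against 4.67, 4.3 and 5.27 in chd8-/- (−1.50, SE 0.28, adjusted p = 0.00786; adjusted p = 0.0573 without chd8-/- replicate 2). In total 2 of 39 retinoid genes rose and 3 fell, shares near the 3.98% and 5.19% of all genes.

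**Figure D5:**
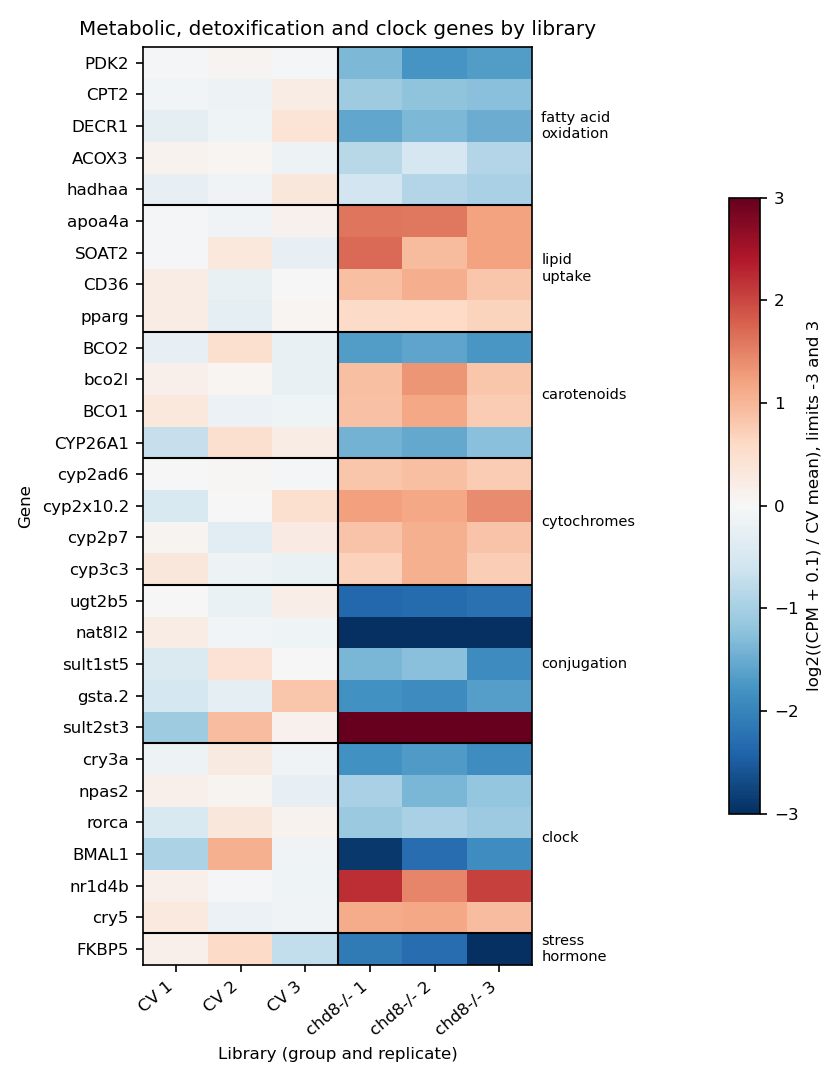
Level of 29 metabolic, detoxification, clock and stress hormone genes in each of the 6 libraries (columns), coloured by log2 of CPM + 0.1 relative to the CV mean, from −3 (blue) to 3 (red), with genes grouped by role in the rows. Within every row the chd8-/- columns share 1 colour, with fatty acid oxidation blue, lipid uptake and cytochromes red, and carotenoid, conjugation and clock rows of both colours.

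Lists of absorptive functions held calls in both directions, where 3.98% of all genes were higher and 5.19% lower. Of 29 brush border genes 3 were higher and 2 lower, and none kept its call with every library left out. The peptidase gene ace stood at 866, 335 and 483 CPM in CV against 1209, 1330 and 1150 in chd8-/- (log2 fold change 1.13, SE 0.30, adjusted p = 0.0422; adjusted p = 0.145 without chd8-/- replicate 2), with a wide spread in CV. Of 2 genes named MEP1B, for the protease meprin, 1 stood at 308, 118 and 171 CPM in CV against 447, 516 and 529 in chd8-/- (1.32, SE 0.30, adjusted p = 0.0224; adjusted p = 0.0853 without chd8-/- replicate 2). Among lysosome-rich enterocyte genes 2 of 33 were higher and 1 lower. The membrane gene tmigd1 rose from 61.6, 53.3 and 38.8 CPM in CV to 97, 111 and 97.3 in chd8-/- (0.99, SE 0.18, adjusted p = 0.00705). Lrp2b, a megalin receptor for protein uptake, stood at 713, 501 and 495 CPM in CV against 280.0, 332 and 304 in chd8-/- (−0.90, SE 0.20, adjusted p = 0.018; adjusted p = 0.104 without chd8-/- replicate 1). Of 43 nutrient transporters 1 was higher and 3 lower, with a fall that kept its call in 1 of 2 genes named SLC16A1, a carrier of lactate and ketone bodies (from 0.889, 1.42 and 2.59 CPM in CV to 0.158, 0.275 and 0.272 in chd8-/-; −2.78, SE 0.54, adjusted p = 0.00949). The other and far more abundant SLC16A1 gene did not pass (−0.12, adjusted p = 0.634). It stood at 71.6, 74.9 and 84.9 CPM in CV against 71.5, 69.9 and 71.4 in chd8-/-. Of 38 ion transporters 3 were higher. SLC30A10, an exporter of manganese, rose from 26, 13.5 and 30.6 CPM in CV to 68.5, 65.2 and 91.5 in chd8-/- (1.69, SE 0.27, adjusted p = 0.00483). The chloride channel CFTR stood at 21, 21 and 16.3 CPM in CV against 32.2, 32.9 and 34.1 in chd8-/- (0.76, SE 0.15, adjusted p = 0.0111; adjusted p = 0.062 without chd8-/- replicate 3).

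Carriers of iron, copper and vitamin B12 gave 3 falls in 25 genes and 0 rises, where 5.19% of all genes fell and 3.98% rose. The B12-binding protein gene tcnbb fell from 74.6, 120.5 and 213 CPM in CV to 9.44, 12 and 8.64 in chd8-/- (log2 fold change −3.76, SE 0.36, adjusted p = 0.000419), with all 3 CV libraries apart from each other and the mutant libraries close together. Of 18 bile acid genes, cyp46a1.1, which hydroxylates cholesterol, fell from 19.1, 12.2 and 15.7 CPM in CV to 6.66, 7.36 and 5.88 in chd8-/- (−1.24, SE 0.20, adjusted p = 0.00425). The bile acid and conjugate exporter gene abcc2 was called higher (0.78; adjusted p = 0.113 without chd8-/- replicate 3). The transcription factors of the intestine had 4 higher and 1 lower of 37, none of which kept its call throughout. They were CEBPD (0.76), FOXA1 (0.71), pparaa (0.65) and pparg (0.61), higher, and KLF4, of goblet cell maturation, lower (−1.19), and each missed the threshold without at least 1 chd8-/- library, with an adjusted p of up to 0.14. Of 35 Wnt pathway genes, which β-catenin governs, 1 was higher and 0 lower: 1 of 2 MYC genes, at 46.6, 28.9 and 35 CPM in CV against 74, 61.5 and 56.9 in chd8-/- (log2 fold change 0.80, SE 0.19, adjusted p = 0.025; adjusted p = 0.12 without chd8-/- replicate 1). In this list 30 members had a positive log2 fold change, but its median of 0.23 shrank to 0.10 when libraries were scaled by size alone.

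Genes of the circadian clock moved in both directions. Of 45 tested, 7 fell, 15.6% where 5.19% of all genes fell, and 3 rose, 6.67%, with 3 to 9 lower and 2 to 12 higher when 1 library was left out. The cryptochrome gene cry3a, a repressor of the clock, fell from 259, 344 and 265 CPM in CV to 81.6, 88.1 and 78.8 in chd8-/- (log2 fold change −1.80, SE 0.17, adjusted p = 0.000172). The gene npas2, a partner of BMAL1, fell from 12, 11.5 and 9.1 CPM in CV to 5.46, 4.09 and 4.76 in chd8-/- (−1.19, SE 0.20, adjusted p = 0.00519). The receptor gene rorca, which activates BMAL1 genes, fell from 23.9, 41.9 and 35.7 CPM in CV to 15.1, 16.8 and 15.3 in chd8-/- (−1.10, SE 0.20, adjusted p = 0.00697). Both genes named BMAL1 were lower too, the first at 3.93, 16.1 and 7.07 CPM in CV against 0.947, 1.5 and 2.04 in chd8-/- (log2 fold change −2.60, SE 0.50, adjusted p = 0.0115; adjusted p = 0.058 without chd8-/- replicate 1). The second differed by −2.17 (adjusted p = 0.116 without chd8-/- replicate 3), and CV replicate 1 was the lowest CV library for both. The nuclear receptor gene nr1d4b, of the group that represses BMAL1 genes, rose from 1.61, 1.4 and 1.29 CPM in CV to 6.94, 4.09 and 6.22 in chd8-/- (2.00, SE 0.28, adjusted p = 0.00167), as did the photolyase family gene cry5, from 18.2, 13.2 and 13.9 CPM in CV to 32.6, 33.8 and 28.5 in chd8-/- (1.07, SE 0.17, adjusted p = 0.00336). The hour at which either group was collected is not in the labels, and its part in these differences was not tested.

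Stress hormone and activity genes were mixed. FKBP5, a classic target of the glucocorticoid receptor, fell from 122, 166 and 66.8 CPM in CV to 25.2, 22.7 and 13.1 in chd8-/- (log2 fold change −2.54, SE 0.35, adjusted p = 0.0027). Of 24 glucocorticoid targets 3 were higher and 3 lower, beside 3.98% and 5.19% of all genes, so the list had no common direction. Both genes named GADD45B, stress-induced regulators of DNA repair and demethylation, rose, the first from 9.51, 10.8 and 10.1 CPM in CV to 42.5, 31.5 and 25.7 in chd8-/- (1.72, SE 0.19, adjusted p = 0.000479). The second rose from 56.8, 37.3 and 48.7 CPM in CV to 133, 119 and 99.2 in chd8-/- (1.30, SE 0.19, adjusted p = 0.00192). The immediate early list had 4 higher and 3 lower of 41 members. Its falls were NR4A3 (−2.02; adjusted p = 0.0809 without chd8-/- replicate 3), FOSL1 (−1.17; adjusted p = 0.164 without chd8-/- replicate 2) and FOSL2 (−1.09; adjusted p = 0.157 without chd8-/- replicate 1), all transcription factors.

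Markers of other cell types and tissues were counted in the same way, where 3.98% of all genes were higher and 5.19% lower. Of 24 exocrine pancreas genes 3 were higher and 0 lower, with 2 to 8 higher when 1 library was left out, most without CV replicate 3. The amylase gene amy2al2 rose from 213, 240.3 and 402 CPM in CV to 1624, 1398 and 1075 in chd8-/- (log2 fold change 2.26, SE 0.28, adjusted p = 0.000774) and the elastase gene cela1.2 from 10.2, 10.2 and 18.5 CPM in CV to 52.3, 45.2 and 37.3 in chd8-/- (1.79, SE 0.24, adjusted p = 0.00148), while the summed levels given above overlapped. Of 35 liver genes 4 rose and 2 fell. The tryptophan enzyme gene tdo2b rose from 113, 61.1 and 84.7 CPM in CV to 200.4, 211 and 193 in chd8-/- (1.22, SE 0.21, adjusted p = 0.0054), serpina7 and ahsg1 rose by 1.32 and 0.89 on the log2 scale, and the antitrypsin gene serpina1l stood at 1093, 1339 and 1564 CPM in CV against 687, 637 and 498 in chd8-/- (−1.13, SE 0.22, adjusted p = 0.00874; adjusted p = 0.0782 without chd8-/- replicate 3). Of 35 erythroid genes 7 fell (20%) and 1 rose. The embryonic globin gene hbae1.1 fell from 3.87, 4.51 and 5.63 CPM in CV to 0.568, 0.214 and 0.408 in chd8-/- (−3.55, SE 0.38, adjusted p = 0.000342). The nuclear factor gene hemgn fell from 21.6, 26.5 and 20.3 CPM in CV to 7.95, 8.91 and 9.28 in chd8-/- (−1.39, SE 0.17, adjusted p = 0.000699). 1 of 2 genes named SLC4A1, the anion exchanger of red cells, rose from 15, 12.2 and 16.4 CPM in CV to 42.9, 29.5 and 33 in chd8-/- (1.27, SE 0.18, adjusted p = 0.00207). Summed erythroid levels were 944 to 959 CPM in CV against 801 to 833 CPM in chd8-/-, without overlap.

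Hormone cell genes had 4 higher and 0 lower of 31, where 3.98% of all genes were higher and 5.19% lower. None of the 4 kept its call in every fit with 1 library left out. CCK, the hormone that answers dietary fat, stood at 4.17, 2.66 and 3.43 CPM in CV against 8.02, 9.16 and 5.61 in chd8-/- (log2 fold change 1.15, SE 0.26, adjusted p = 0.0195; adjusted p = 0.0986 without chd8-/- replicate 2), and NEUROD1 (0.86; adjusted p = 0.161 without chd8-/- replicate 3). Among 34 genes of enteric neurons, NOS1, which makes nitric oxide in the neurons that relax the gut, fell from 90.7, 48.2 and 81.9 CPM in CV to 33.2, 32.2 and 31.6 in chd8-/- (−1.19, SE 0.21, adjusted p = 0.0066). In vessels, the angiopoietin receptor gene tek rose from 7.46, 5.05 and 5.67 CPM in CV to 15, 17.4 and 19.2 in chd8-/- (1.51, SE 0.20, adjusted p = 0.00116) as the single call of 29. In muscle, 2 of 35 genes rose, and pvalb3, for the calcium buffer parvalbumin, did so from 1.64, 2.82 and 2.69 CPM in CV to 9.18, 6.29 and 8.87 in chd8-/- (1.76, SE 0.27, adjusted p = 0.0028). In skin, 3 of 33 rose and 1 fell, with anxa1b, an annexin gene, going from 4.34, 6.39 and 6.12 CPM in CV to 39.6, 41.6 and 33.5 in chd8-/- (2.76, SE 0.19, adjusted p = 2.34e-05). Of 76 matrix genes 4 rose and 1 fell, 5.26% and 1.32%. The collagen cross-linking enzyme gene LOXL2 rose from 16, 12 and 19 CPM in CV to 46.4, 41.3 and 37.6 in chd8-/- (1.42, SE 0.19, adjusted p = 0.00117). Its relative loxl2a rose from 17.1, 16.5 and 10.6 CPM in CV to 35.4, 29.7 and 34.5 in chd8-/- (1.17, SE 0.19, adjusted p = 0.00448). The link protein gene hapln1a, of cartilage, fell from 36.9, 33.6 and 36.4 CPM in CV to 18.1, 22.3 and 20.4 in chd8-/- (−0.81, SE 0.14, adjusted p = 0.00628), and the junction gene f11r.2 from 8.01, 12.8 and 13.8 CPM in CV to 4.39, 2.32 and 4.56 in chd8-/- (−1.62, SE 0.29, adjusted p = 0.00703). The brain, retina and lens list summed to 37.4 CPM in chd8-/- replicate 2 and to 10.1 to 13.3 CPM in the other 5 libraries.

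Several basic programs and further lists follow, to be read beside the 3.98% higher and 5.19% lower of all genes, and some held no call. Of 20 Notch genes, 30 heat shock genes and 45 proteasome genes edgeR called 0, with 7, 3 and 5 at an unadjusted p under 0.05, and DESeq2 called 1, 0 and 0. In the fit without CV replicate 1, 3 Notch genes were higher and 5 proteasome genes lower. Of 79 ribosomal protein genes 2 were lower and 0 higher, with 13 higher without CV replicate 3, and of 85 nuclear genes of oxidative phosphorylation 1 was higher and 1 lower, with 15 higher without CV replicate 3. The ribosomal gene RPL22L1 fell from 85.1, 189 and 278 CPM in CV to 46.9, 43.2 and 47.7 in chd8-/- (adjusted p = 0.00893). The gene ndufa4b, of the respiratory chain, fell from 139, 132 and 179 CPM in CV to 49.7, 57.5 and 45.4 in chd8-/- (−1.56, SE 0.17, adjusted p = 0.000404). Among 13 mitochondrial genes MT-ND3 rose from 134, 87.8 and 113 CPM in CV to 216, 277 and 218 in chd8-/- (1.08, SE 0.19, adjusted p = 0.00628), and no other member was called. Of 37 unfolded protein response genes 1 was higher and 1 lower, and of 32 amino acid stress genes 2 were higher and 0 lower. The other lists gave 2 higher and 1 lower of 36 general lysosome genes, 1 higher and 0 lower of 21 fatty acid synthesis genes, 2 higher and 1 lower of 35 hypoxia genes, 1 higher and 3 lower of 46 epithelial junction genes. They gave 0 higher and 1 lower of 11 goblet cell genes, 1 higher and 0 lower of 33 smooth muscle genes, 1 higher and 1 lower of 26 cartilage and bone genes, 0 higher and 0 lower of 23 kidney and swim bladder genes, the last with 2 at an unadjusted p under 0.05 and 1 called by DESeq2.

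Some genes were close to on or off. Among genes with a symbol and at least 5 CPM in 1 group that kept their call throughout, si:ch211-209l18.4 had 0 counts in all 3 CV libraries and 16.1, 20.1 and 18 CPM in chd8-/-, at least 585-fold higher against a floor of 3 counts over the group (adjusted p = 3.74e-06). In the other direction, si:ch211-1k7.1 and si:ch211-235i11.6 had 0 counts in all 3 mutant libraries, with 6.19, 9.26 and 7.63 CPM and 6.74, 5.83 and 5.6 CPM in CV, at least 241-fold and 190-fold lower. The gene zgc:92590 fell from 66, 67.6 and 72.6 CPM in CV to 0.189, 0 and 0.272 in chd8-/- (log2 fold change −8.80, SE 0.42, adjusted p = 3.74e-06). A transcript named si:ch73-329n5.6 stood at 44.4, 118 and 37.7 CPM in CV against 0, 0.0305 and 0 in chd8-/- (adjusted p = 0.000201), with 1 count left in the mutant group. The taste receptor gene tas1r3, a subunit of sweet and umami receptors, rose from 0.0684, 0.203 and 0.07 CPM in CV to 7.01, 10.2 and 10.3 in chd8-/- (log2 fold change 6.19, SE 0.39, adjusted p = 1.55e-05). The gene lrfn5b, for an adhesion protein of synapses, rose from 0.616, 0.659 and 0.91 CPM in CV to 10.3, 6.41 and 9.01 in chd8-/- (3.56, SE 0.29, adjusted p = 6.96e-05). 1 of 3 genes named GGACT, an amine cyclotransferase, rose from 1.57, 1.37 and 1.61 CPM in CV to 18.2, 20.5 and 18.1 in chd8-/- (3.64, SE 0.19, adjusted p = 3.74e-06). Most of the 24 genes picked by size, 12 per direction, carry clone or locus names without a known role, among them loc100334908, which rose from 0, 0 and 0.07 CPM in CV to 44.8, 35.6 and 37.6 in chd8-/- with 2 counts in the CV group.

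The kidney offered a second look at these genes, with 1 chd8-/- library to be read with care. Among the CV kidneys, replicate 1 also stood apart in some genes, with irf1b at 156 CPM against 17.6 and 25.1 in replicates 2 and 3. For 1 of 2 genes named PER1, CV kidney replicate 1 held 12.8 CPM against 219 and 226. Of the 24 genes, the library labelled chd8-/- kidney replicate 1 lay outside the range of the 3 CV kidneys, on the side of the intestinal difference, for 7, whereas replicates 2 and 3 did so for 20 each. Of 158 genes that differed at least 8-fold in the intestine and kept their calls, the counts were 37, 129 and 131. In zgc:92590 the kidneys stood at 88.8, 110.3 and 147 CPM in CV against 72.1, 0.0664 and 1.97 in chd8-/- kidney (TMM over 12 libraries), so replicate 1 stood near CV and the other 2 did not. In si:ch211-209l18.4 they stood at 0, 0 and 0 CPM in CV against 0, 22.3 and 15.4 in chd8-/- kidney. In tas1r3 they stood at 0, 0 and 0 CPM in CV against 0, 4.02 and 5.21 in chd8-/- kidney. CHD8 itself was at 45.2, 50.4 and 50.8 CPM in CV against 29.7, 34.2 and 38.5 in chd8-/- kidney, where replicate 1 was the lowest, so this gene did not set it apart. That library also held the most RNA of gut markers, with FABP2 at 8.65, 18.8 and 19.9 CPM in CV against 71.9, 35.2 and 38.7 in chd8-/- kidney. Replicates 2 and 3 lay above every CV kidney too, as they did for VIL1 (18.6, 31.1 and 36.6 CPM in CV against 85.4, 52.3 and 57.2 in chd8-/-). For cdx1b replicate 3 did not (2.93, 2.71 and 3.82 CPM in CV against 9.58, 4.42 and 1.29 in chd8-/-). Whether the library labelled chd8-/- kidney replicate 1 holds other fish or tissue than its label says was not tested, and the differences between tissues are given with and without it.

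Across the 12 libraries of both tissues, 34 of 22203 genes tested, 0.153%, had a chd8-/- minus CV difference in the intestine that differed from that in the kidney, 19 of them with a higher and 15 with a lower value in the intestine, and 2196 had an unadjusted p under 0.05. Without the library labelled chd8-/- kidney replicate 1 there were 64, 31 of the 34 included, and without intestinal library chd8-/- replicate 3 there were 13. Of the 34, 26 were also called in the intestine alone. Of the 46 interferon-induced effectors 8 were among them. Kidneys were taken at 7 days, from 50 CV and 70 chd8-/- larvae in the labels, so tissue and age cannot be told apart here. On the scale of 12 libraries isg15 stood at 11, 11.8 and 6.92 CPM in CV and 57.2, 57.2 and 48.1 CPM in chd8-/- intestine, but at 9.75, 7.8 and 6.42 CPM in CV against 1.51, 3.29 and 3.12 in chd8-/- kidney. Mutant libraries lay above CV in the intestine and below CV in the kidney, and the differences between genotypes were apart by 4.05, SE 0.40, adjusted p = 0.00104 (3.77, adjusted p = 0.000772 without that library). The gene igldcp showed it more sharply, with 4.59, 4.77 and 1.59 CPM and 19, 23.8 and 25.9 CPM in CV and chd8-/- intestine and 3, 4.77 and 2.87 CPM in CV against 0.274, 0.399 and 0.0718 in chd8-/- kidney (6.44, SE 0.66, adjusted p = 0.00104; 6.51, adjusted p = 0.00396 without it). For ifi27.1 the kidneys held 9.05, 6.79 and 6.02 CPM in CV against 1.81, 1.96 and 0.718 in chd8-/- kidney (3.99, SE 0.45, adjusted p = 0.00161; 4.15, adjusted p = 0.00377 without it). For mov10b.2, an RNA helicase gene, they held 1.83, 1.7 and 1.89 CPM in CV against 0.513, 0.664 and 0.215 in chd8-/- kidney (3.78, SE 0.52, adjusted p = 0.00795; 3.85, adjusted p = 0.0113 without it). The genes ifit8 and mxb, at or near 0 in all chd8-/- kidneys, were called as well, and the size of their fitted difference depends on the prior count.

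Among the 15 genes whose difference was lower in the intestine, some also differed in the intestine alone and others did not. The zona pellucida-like gene cuzd1.2 fell in the intestine, from 75, 116 and 57.7 CPM in CV to 15.2, 19.2 and 18.6 in chd8-/- (log2 fold change −2.23, SE 0.24, adjusted p = 0.000406), and stood at 0.799, 1.05 and 1.89 CPM in CV against 4.48, 3.69 and 2.62 in chd8-/- kidney (difference −3.75, SE 0.45, adjusted p = 0.00315; −3.56, adjusted p = 0.00508 without the library named above). Its neighbour in name, cuzd1.1, fell by 2.16 on the log2 scale in the intestine and was not called between tissues. UHRF1, lower in the intestine as given above, held 14.9, 9.14 and 11.3 CPM in CV against 26.7, 16.5 and 16.8 in chd8-/- kidney (−1.83, SE 0.32, adjusted p = 0.0452; −1.56, adjusted p = 0.0396 without it). The opioid peptide gene penka, the tooth mineral gene scpp5, the parvalbumin gene pvalb9 and the lipoprotein gene apoa4b.3 did not pass in the intestine and were higher in all 3 chd8-/- kidneys than in any CV kidney (differences of −2.98, −4.57, −2.83 and −2.56), scpp5 without a call when that library was left out (adjusted p = 0.0793). Of the 12 fits that left out 1 library, scpp5 was called in 2, UHRF1 and pvalb9 in 4, apoa4b.3 in 8 and penka in 12. In kidney, penka stood near the floor, at 0.0666, 0.0723 and 0.0676 CPM in CV against 0.547, 0.399 and 0.359 in chd8-/-. CV intestine held a mean of 26.7 CPM of penka and 142 CPM of apoa4b.3. The part of gut RNA in the kidney values of penka, apoa4b.3 and cuzd1.2 was not tested. For the replication and mitosis genes other than UHRF1, the difference between tissues did not pass, DNMT1 coming nearest (−1.93, SE 0.40, adjusted p = 0.0801).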

How the data were processed

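RNA was sequenced from dissected zebrafish intestine (5 days) and kidney (7 days). The authors deposited whole-number read counts per gene, 1 column per library, made per the submitters' processing notes with FastQC 0.11.9, Trim Galore 0.6.7, STAR 2.7.9a and featureCounts of Subread 2.0.1 on GRCz11. No source used here gives the annotation, the strand setting or the treatment of multi-mapped reads, so members of the ifi27, ifit, herc56, mhc1, mhc2 and hbae families, genes named as 1 of several with a symbol, and overlapping genes are uncertain. Of 32520 gene IDs, 29201 had a symbol in the table supplied, 12593 of them spelled in capitals and kept so.

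Differences in counts were tested by edgeR 4.0.16 under R 4.3.3 (TMM factors, filterByExpr, robust quasi-likelihood fit, Benjamini-Hochberg adjustment over all genes tested, threshold 0.05), on 6 intestinal libraries, or on 12 libraries for the difference between tissues. The SE of a log2 fold change is its size divided by the square root of F. The code was tested on simulated data. CPM values use TMM factors over 6 libraries, or over 12 where kidney values are given. A fold against a group with 0 counts was computed against 3 counts over the group, a limit that covers counting error only. Library totals ranged from 26809112 to 36605507 counts in intestine and from 27291597 to 31268453 in kidney. Alternatives were DESeq2 1.42.0 (adjusted p values it left missing stayed missing), limma-voom (limma 3.58.1), other scalings and filters, a replicate block, the CV columns of the germ-free table, and leaving out each library.

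Genes were named by rule: the targeted gene; the 12 largest changes per direction among genes with a symbol, at least 5 CPM in 1 group and a call in all 6 fits with 1 library left out; up to 4 members per list that kept their calls, by p, or the 2 most abundant where none was called; and 5 per direction for the difference between tissues. The genes outside these rules, such as most called only with all libraries in and the nucleotide, recombination and chromatin genes beside the lists, were chosen after their values were seen. The members and lists were chosen with earlier results of these data known. Promoter windows were not used here.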

Additional observations from a re-analysis of the deposited data

Results flagged for a closer look

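The difference between chd8-/- and CV was larger, smaller or opposite in intestine and kidney for 20 named genes, by a test of the difference itself over 12 libraries (edgeR, adjusted p under 0.05). Higher in the intestine, on the log2 scale, were the interferon-induced genes isg15 (4.05), igldcp (6.44), ifi27.1 (3.99), ifi27.4 (2.84), ifi27.6 (6.13), helz2a (4.63), ZNFX1 (3.38), mov10b.2 (3.78), herc56.2 (3.22) and gig2e (2.19). The genes ifit8 (10.93) and mxb (8.35) were at or near 0 in all chd8-/- kidneys, so the size of these 2 values depends on the prior count. The genes si:dkey-238o14.2 (4.24) and si:dkey-85k7.12 (6.29) have no role known here. Lower in the intestine were UHRF1 (−1.83), apoa4b.3 (−2.56), cuzd1.2 (−3.75), penka (−2.98), pvalb9 (−2.83) and scpp5 (−4.57). Without the library labelled chd8-/- kidney replicate 1, the calls of helz2a (4.50, adjusted p = 0.0853), ZNFX1 (3.15, adjusted p = 0.0511) and scpp5 (−4.38, adjusted p = 0.0793) were lost. Of the 12 fits that left out 1 library, scpp5 was called in 2, ifi27.4 in 3, and ifi27.6, helz2a, UHRF1 and pvalb9 in 4. ZNFX1 was called in 5, gig2e and apoa4b.3 in 8 and si:dkey-238o14.2 in 10. The genes isg15, igldcp, ifi27.1, mov10b.2, ifit8, si:dkey-85k7.12, penka and cuzd1.2 were called in all 12.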

How the results depend on the processing

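The count of 1903 genes stayed within 1.5 times under DESeq2 (2748), limma-voom (1832), library size alone (2132), DESeq2's size factors in edgeR (1890), no filter on low counts (2077), at least 50 counts in at least 3 libraries (1645) and the CV columns of the germ-free table (1894), and ranged from 741 to 3069 with 1 library left out. Library size alone moved the share of higher calls from 43.4% to 27.1%. The log2 fold change of CHD8 ranged from −0.70 to −0.51 with 1 library left out, and its call was lost in 4 of these 6 fits. The difference between tissues, 34 genes, gave 307 with DESeq2 and 13 to 64 with 1 library left out, with 41 when this was CV kidney replicate 1. The cause was not tested. Of 274 called named genes, DESeq2 lost 0, limma-voom 25, library size alone 28 and the replicate block 66. Leaving out CV replicate 1, 2 or 3 lost 8, 80 or 55 of them, and leaving out chd8-/- replicate 1, 2 or 3 lost 113, 125 or 120; none reversed in any alternative run. The 598 genes called in all 6 fits with 1 library left out were called by DESeq2 too, and 512 of them in every setting, the strict filter having tested fewer.

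Replicate numbers do not pair the samples: deviations of same-numbered libraries correlated at −0.11, 0.01 and −0.06. With a replicate block 1344 genes were called in intestine, 16 between tissues, and CHD8 stayed at −0.60 with an adjusted p of 0.0568. Depth did not limit the abundant genes named here, but genes under 1 CPM rest on few counts.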

Other observations

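Genes near chd8 on its chromosome were looked at separately. The order of genes was taken from the RefSeq annotation of another assembly, and of the 15 genes on each side, 24 matched 1 gene of the table, 19 were tested and 3 were called (15.8%, where 9.17% of all genes were called). They were tep1, 14 genes away and given above under the complement list, and the cerebellin-like genes cbln14 and cbln9. Of these, cbln9 stood at 6.77, 5.68 and 5.21 CPM in CV against 13.4, 13.7 and 10.3 CPM in chd8-/-, and kept its call with each library left out, whereas cbln14 stood at 15.5, 28 and 26.4 CPM in CV against 11.5, 14 and 9.45 CPM in chd8-/-, and lost it in each fit with 1 library left out other than that without CV replicate 1 (adjusted p of up to 0.125). The neighbours tox4a, hnrnpc and DCAF8 were not called.

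The 3 CV intestine libraries were counted both in this table and in the one with germ-free fish, under other numbers, with 72.8% to 80.9% of genes at equal counts. Using the other columns left 1894 genes called.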
